A study of Mus musculus with 4 samples.

Results

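A set of 40 genes of cell-cell junctions and apical-basal polarity was followed across 4 mouse pancreatic tumour cell lines. They comprised 18 genes of tight junction strands and their adaptors, 4 polarity genes, 3 genes of the epithelial adherens junction, the 2 mesenchymal cadherins Cdh2 and Cdh11, 9 desmosome genes, the epithelial adhesion gene Epcam and 3 gap junction genes. Each was taken by gene symbol from the array annotation, all 40 were measured, and they stand among 19938 genes with a symbol of their own.

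The lines K459 and TCPA18654 are TPAC and the lines TPC18645 and TPC20223 are TPC. All 4 carry Ela-TGFa, a TGF-α transgene under the elastase promoter, which is active in acinar cells, then a Cre allele written Ptg1a+/CRE in the labels and p48-Cre by the study, which acts in pancreatic cells, and floxed p53 (Trp53fl/fl). TPAC lines also carry p65fl/fl, floxed alleles of RelA/p65, a subunit of NF-κB. The cells were grown out of enzymatically digested pancreatic tumours with no selection for epithelial cells described, and received no treatment. Each line was measured on 1 Affymetrix Mouse Gene 1.0 ST array. The ages of their mice, the passages in culture and whether each line had a mouse of its own are not given in the sources used here, so p-values measure only the spread between these lines.

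In an epithelium, tight junctions seal the space between neighbouring cells, adherens junctions and desmosomes hold the cells together by coupling cadherins to actin and to keratin filaments, and gap junctions let small molecules pass. Claudins and occludin form the tight junction strands, whereas the Par, Crumbs and Scribble complexes set up the apical and basolateral domains. Loss of E-cadherin together with gain of mesenchymal cadherins is the classical sign of the epithelial-mesenchymal transition, and both epithelial and mesenchymal-like cells occur in pancreatic ductal adenocarcinoma.

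Values are log2 signals made by the authors with RMA, a method that corrects background, gives all arrays nearly the same distribution and summarises the probes of a gene, so a difference of 1 is 2-fold. The file carries no detection call. A signal at or below the 40th percentile of its array (6.91 in K459, 6.92 in TCPA18654, 6.94 in TPC20223 and 6.87 in TPC18645) is called low here, and a difference that involves a low signal has no exact size. Low signals were found for 2 members in K459, 9 in TCPA18654, 14 in TPC20223 and 9 in TPC18645.

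Rela, the gene targeted in TPAC, had a log2 signal of 10.82 in K459 and 11.10 in TCPA18654, against 10.70 in TPC20223 and 11.12 in TPC18645, so it did not separate the genotypes. This signal summarises the whole gene and does not isolate the floxed stretch, so it is no check of the labels. The labels call the cells pancreatic tumor cells. The mean log2 signal of 8 markers of ductal tumour epithelium was 11.70 in K459 and 10.65 in TCPA18654, against 7.23 in TPC20223 and 10.47 in TPC18645. In TPC20223, 4 of the 8 were low, among them the keratin genes Krt18 and Krt19 with signals of 6.50 and 6.08. Sox9 and Cftr did not follow, with Sox9 at 10.89 in TPC20223, against 10.14 in TCPA18654 and 10.21 in TPC18645. Cftr was at 7.05 in TPC20223, against 6.20 in TCPA18654 and 5.86 in TPC18645. Both were highest in K459, at 11.56 and 7.75. Of 10 fibroblast markers 7 were highest in TPC20223, among them Lum, whose signal was low in every line. The mean of the 10 was 8.25 in K459 and 7.48 in TCPA18654, against 9.32 in TPC20223 and 7.64 in TPC18645. Collagen I (Col1a1, 13.02), periostin (Postn, 11.71) and Pdgfra (10.32) were high in TPC20223. Dcn, encoding decorin, went the other way in part, with 8.57 in K459 and 10.99 in TCPA18654, against 9.35 in TPC20223 and 11.03 in TPC18645. Thy1 was highest in K459 at 8.86, against 7.23 in TPC20223, and the fibroblast markers Lum and Fap had low signals, from 4.27 to 4.78, in all 4 lines. TPC20223 thus stood apart by genes other than junction genes. The keratin gene Krt20 (5.86) was low there too, whereas Krt8 (7.87) and Krt7 (6.96) were above the low range, though far below the other lines. In a bulk sample, a change in every cell and a change in the share of a cell type cannot be told apart, and the part of the marker differences in the results below was not tested. Endothelial, leukocyte, Schwann cell and acinar marker lists had means from 6.04 to 7.23 in every line. Single markers of these lists had higher signals and differed by line. Cd68 had 7.66 in K459 and 8.60 in TCPA18654, against 6.66 in TPC20223 and 8.60 in TPC18645. Ctrb1 had 8.11 in TPC18645 and 6.92 to 7.05 in the other lines.

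**Figure D1:**
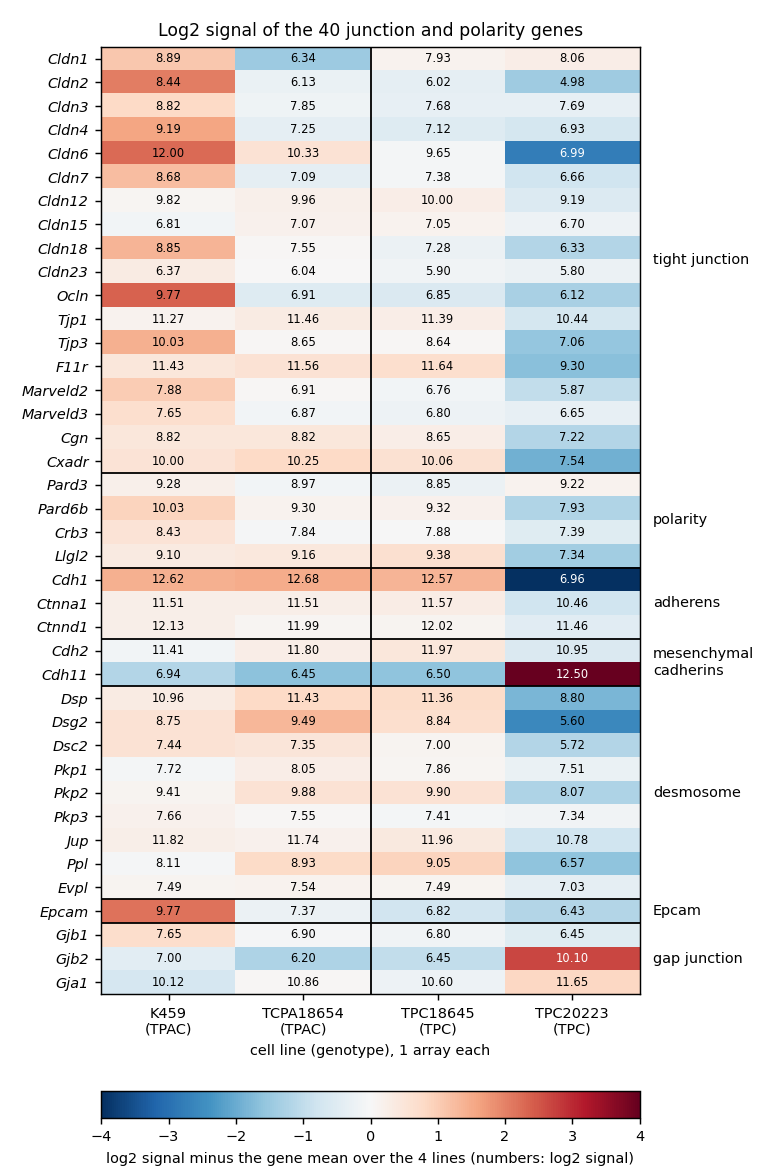
Log2 signal of each of the 40 genes (rows, grouped by junction type) in the 4 lines (columns, 1 array each). Numbers are signals and colours give the signal minus the gene's mean over the lines, from -4 to 4. Most rows are lowest in TPC20223, most claudins are highest in K459, and Cdh11 and Gjb2 are high in TPC20223 alone.

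Junction genes differed mainly between single lines. TPC20223 was the lowest line for 34 of the 40 members, against 38.8% of all genes, and lay below each other line by a log2 difference of 1 or more for 15 of them, against 2.95% of all genes. These 15 were Cdh1, Ctnna1, Dsp, Dsg2, Dsc2, Pkp2, Ppl, F11r, Cxadr, Cgn, Tjp3, Cldn2, Cldn6, Pard6b and Llgl2. Of them, Dsg2, Dsc2, Ppl and Cldn2 had low signals in TPC20223, and Cldn2 also in TCPA18654 and TPC18645. K459 was the highest line for 20 members (22.6% of all genes) and exceeded each other line by at least 1 for 8, against 0.988% of all genes, namely Cldn2, Cldn4, Cldn6, Cldn7, Cldn18, Ocln, Tjp3 and Epcam. Of those 8, 7 belong to the 18 tight junction members and 0 to the 9 desmosome members. TCPA18654 and TPC18645, which differ in genotype, were at least 2-fold apart for 1 member only, Cldn1, against 0.271% of all genes. For 20 members K459, TCPA18654 and TPC18645 lay within 0.5 of each other, against 83.4% of all genes. These counts describe 1 array per line and carry no test. The members were chosen with earlier results of these data known, which can enlarge their contrast with all genes.

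Promoter sequences of members are shown because they let the main patterns be read beside the DNA in front of the genes: Dsp and F11r for genes lowest in TPC20223, Ocln and Epcam for genes high in K459, Cldn6 for both, and Gjb2 for a gene high in TPC20223. They were chosen after the values were seen, from members with a promoter entry that holds the motif described next. Sequences are RefSeq promoters of GRCm38.p6, each from 250 bases before to 30 bases after an annotated transcription start, written 5′ to 3′ on the gene's strand. Capitals mark CAGGTG or its reverse complement CACCTG, the E-box form bound by the repressors Snail and Zeb.
Dsp promoter: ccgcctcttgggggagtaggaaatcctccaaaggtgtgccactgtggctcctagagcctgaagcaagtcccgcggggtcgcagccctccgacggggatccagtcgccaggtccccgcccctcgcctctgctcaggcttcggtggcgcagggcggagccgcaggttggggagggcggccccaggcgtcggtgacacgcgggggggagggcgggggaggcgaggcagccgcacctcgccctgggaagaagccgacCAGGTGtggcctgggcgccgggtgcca
F11r promoter: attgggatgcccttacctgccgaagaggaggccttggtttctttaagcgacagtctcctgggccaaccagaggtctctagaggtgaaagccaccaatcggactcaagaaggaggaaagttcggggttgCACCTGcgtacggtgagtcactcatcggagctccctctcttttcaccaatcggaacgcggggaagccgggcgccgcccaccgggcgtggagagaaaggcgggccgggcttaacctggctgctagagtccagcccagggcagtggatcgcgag
Ocln promoter: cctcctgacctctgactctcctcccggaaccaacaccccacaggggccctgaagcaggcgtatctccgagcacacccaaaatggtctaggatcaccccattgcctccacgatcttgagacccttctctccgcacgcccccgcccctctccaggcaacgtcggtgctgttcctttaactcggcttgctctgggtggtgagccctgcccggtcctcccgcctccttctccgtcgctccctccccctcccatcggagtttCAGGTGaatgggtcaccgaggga
Epcam promoter: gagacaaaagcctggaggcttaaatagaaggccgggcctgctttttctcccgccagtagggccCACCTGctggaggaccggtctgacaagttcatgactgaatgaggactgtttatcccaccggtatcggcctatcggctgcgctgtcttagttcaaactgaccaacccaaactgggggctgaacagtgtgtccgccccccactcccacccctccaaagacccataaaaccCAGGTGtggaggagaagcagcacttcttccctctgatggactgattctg
Cldn6 promoter: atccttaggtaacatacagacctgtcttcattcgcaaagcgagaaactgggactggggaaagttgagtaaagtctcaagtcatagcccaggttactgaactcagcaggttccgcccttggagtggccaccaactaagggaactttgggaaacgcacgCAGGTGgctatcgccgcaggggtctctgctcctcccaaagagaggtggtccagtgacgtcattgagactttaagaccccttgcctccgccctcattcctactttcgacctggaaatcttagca
Gjb2 promoter: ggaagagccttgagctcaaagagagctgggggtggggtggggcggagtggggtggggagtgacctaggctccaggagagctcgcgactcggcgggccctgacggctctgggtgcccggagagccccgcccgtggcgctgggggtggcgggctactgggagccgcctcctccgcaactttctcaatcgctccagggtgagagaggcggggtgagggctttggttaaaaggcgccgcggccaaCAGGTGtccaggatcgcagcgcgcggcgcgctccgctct
The Dsp window is chr13:38151044-38151323 (+), the F11r window chr1:171437311-171437590 (+), the Ocln window chr13:100552689-100552968 (-), the Epcam window chr17:87635729-87636008 (+), the Cldn6 window chr17:23679115-23679394 (+) and the Gjb2 window chr14:57104673-57104952 (-). Each covers the 5′ flank and the first bases of the first exon.

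Searched on both strands and up to 50 bases after the start, this E-box was present in at least 1 promoter window of 15 of the 25 members with an entry, or 60% of them, against 22.6% of all 27025 genes of the table and 22.2% of the 15614 that were measured here. The 15 were F11r, Ocln, Marveld2, Tjp3, Cldn3, Cldn4, Cldn6, Cldn7, Pard3, Pard6b, Crb3, Dsp, Epcam, Gjb1 and Gjb2. No window held it for the other members with an entry, Cldn1, Cldn2, Cldn12, Cldn15, Cldn18, Tjp1, Cgn, Ctnnd1, Jup and Gja1. Of these, Cldn2 and Cgn were lowest by at least 1 in TPC20223, and Cldn2 and Cldn18 highest by at least 1 in K459. The E-box was found both in genes lowest in TPC20223 and in Gjb2, which was high there, and in Pard3, which hardly varied. Counted by window, 19 of 38 member windows (50%) held it, against 20.2% of all windows. With only the 250 bases before the start the shares were 48% of members and 19.4% of genes. The palindrome AACCGGTT, a form bound by Grainyhead-like factors that does not overlap with the E-box, occurred in 0 of 25 members and 0.174% of genes. A match of letters is a description and shows no binding. The table has no entry for Cdh1, Cdh2, Cdh11, Ctnna1, Cxadr, Llgl2, Cldn23, Marveld3, Dsg2, Dsc2, Pkp1, Pkp2, Pkp3, Ppl and Evpl.

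The 3 epithelial adherens junction members were lowest in TPC20223 (38.8% of all genes), by a wide step for Cdh1 only. The 17 adherens junction genes measured outside the 40 differed little as a set. Their median TPC20223 minus TPC18645 difference was -0.14, against -0.05 over all genes. Cdh1, which encodes E-cadherin, had a log2 signal of 12.62 in K459 and 12.68 in TCPA18654, against 6.96 in TPC20223 and 12.57 in TPC18645. Its signal in TPC20223 was thus close to the 40th percentile of that array, while the other lines were within 0.11 of each other. TPC20223 was 48.8-fold below TPC18645, the 14th largest such difference among 19938 genes. The cytoplasmic partners of E-cadherin were also lowest in TPC20223 but had high signals there too. Ctnna1, encoding α-catenin, which links the complex to actin, had 11.51 in K459 and 11.51 in TCPA18654, against 10.46 in TPC20223 and 11.57 in TPC18645. Ctnnd1, encoding p120-catenin, which stabilises cadherins at the membrane, had 12.13 in K459 and 11.99 in TCPA18654, against 11.46 in TPC20223 and 12.02 in TPC18645. Ctnnb1, encoding β-catenin and no member of the 40, had 13.03 and 12.94 in these TPAC lines, against 12.45 in TPC20223 and 12.97 in TPC18645.

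The mesenchymal cadherins went different ways. Cdh11, encoding cadherin-11 of mesenchymal cells, had low or nearly low signals of 6.94 in K459 and 6.45 in TCPA18654, against 12.50 in TPC20223 and 6.50 in TPC18645. It was 64-fold higher in TPC20223 than in TPC18645, the 10th largest difference in this direction. The Cdh11 signal in TPC18645 was low, so this fold is not exact. The line with the lowest Cdh1 signal thus had the highest Cdh11 signal. Cdh2, encoding N-cadherin, did not follow this pattern. It had 11.41 in K459 and 11.80 in TCPA18654, against 10.95 in TPC20223 and 11.97 in TPC18645, so that its signal was high in the 3 lines with high Cdh1 and lowest in TPC20223.

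**Figure D2:**
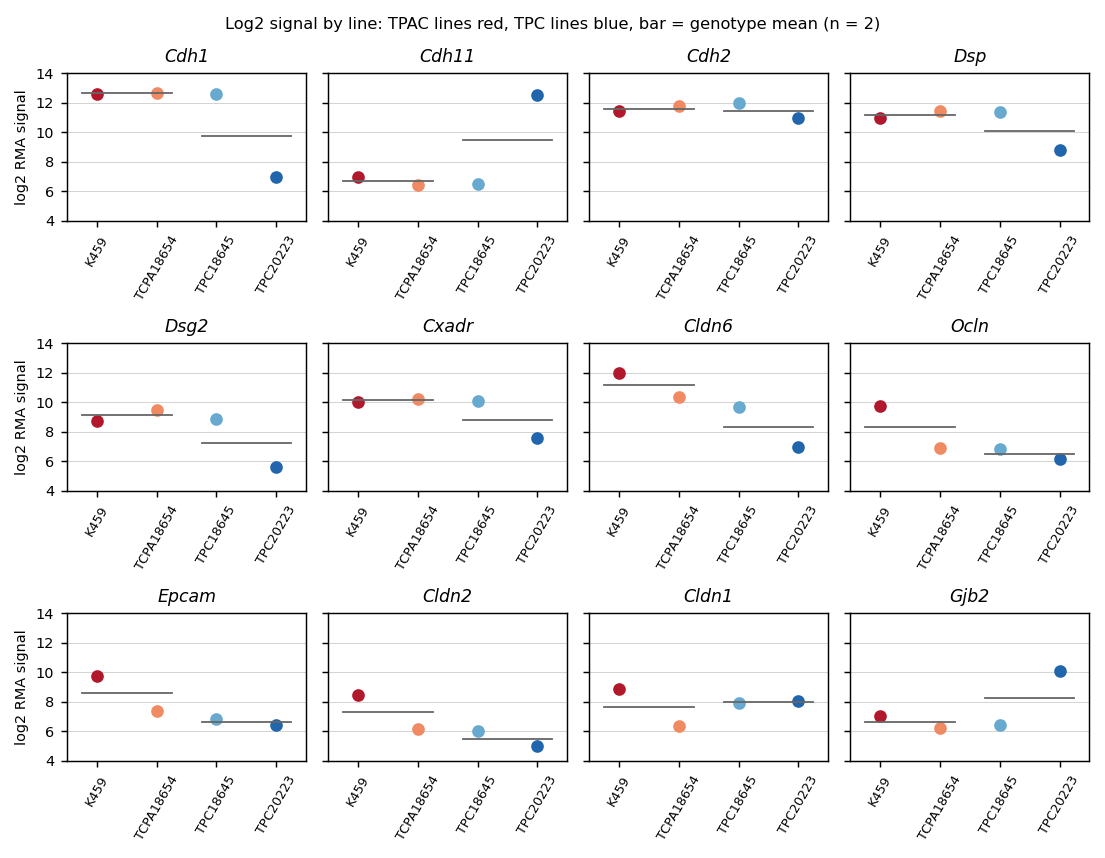
Log2 RMA signal (vertical axis) of 12 members in each line (horizontal axis; TPAC red, TPC blue, 1 array per point), with the mean of each genotype as a bar. Cdh1, Dsp, Dsg2 and Cxadr are lowest in TPC20223, Cdh11 and Gjb2 are high in TPC20223 only, Ocln, Epcam and Cldn2 are high in K459, and Cldn1 is low in TCPA18654.

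All 9 desmosome members were lowest in TPC20223, against 38.8% of all genes. Dsp, encoding desmoplakin, which ties the desmosome to keratin filaments, had 10.96 in K459 and 11.43 in TCPA18654, against 8.80 in TPC20223 and 11.36 in TPC18645. Dsg2, a desmosomal cadherin gene, had 8.75 in K459 and 9.49 in TCPA18654, against 5.60 in TPC20223 and 8.84 in TPC18645. Relative to TPC18645, TPC20223 was 5.9-fold lower for Dsp and 9.45-fold lower for Dsg2. The Dsg2 signal was low in TPC20223, so its fold is not exact. Jup, encoding plakoglobin, which binds desmosomal and classical cadherins alike, had 11.82 in K459 and 11.74 in TCPA18654, against 10.78 in TPC20223 and 11.96 in TPC18645. Ppl, encoding periplakin, was 5.58-fold lower in TPC20223 than in TPC18645, Pkp2, encoding plakophilin 2, 3.56-fold, and Dsc2, a desmocollin gene, 2.43-fold. The folds of Ppl and Dsc2 are not exact either, as their TPC20223 signals of 6.57 and 5.72 were low. The remaining desmosome members Pkp1, Pkp3 and Evpl varied less than these. Their ranges over the 4 lines were 0.54, 0.32 and 0.51, near the median of 0.40 over all genes. K459 did not stand above TCPA18654 in this group, the difference running from -0.82 for Ppl to 0.11 for Pkp3. Its median was -0.33, against -0.02 over all genes. TCPA18654 and TPC18645 differed most for Dsg2, by 0.65.

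Tight junction genes showed 2 patterns. Transmembrane and adaptor genes in the first were at like levels in 3 lines and lower in TPC20223. F11r, encoding the junctional adhesion molecule JAM-A, had 11.43 in K459 and 11.56 in TCPA18654, against 9.30 in TPC20223 and 11.64 in TPC18645. Cxadr, encoding the coxsackievirus and adenovirus receptor, an adhesion protein of tight junctions, had 10.00 in K459 and 10.25 in TCPA18654, against 7.54 in TPC20223 and 10.06 in TPC18645. Tjp1, encoding the scaffold ZO-1, had 11.27 in K459 and 11.46 in TCPA18654, against 10.44 in TPC20223 and 11.39 in TPC18645. TPC20223 was 5.06-fold below TPC18645 for F11r and 5.74-fold for Cxadr, but 1.93-fold for Tjp1. Cgn, encoding the adaptor cingulin, was 2.69-fold lower in TPC20223 and at 8.82 in both TPAC lines.

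In the other pattern K459 was highest. Ocln, encoding occludin, had 9.77 in K459 and 6.91 in TCPA18654, against 6.12 in TPC20223 and 6.85 in TPC18645. Only K459 therefore had an occludin signal above the low range, 7.26-fold over TCPA18654, the 51st largest difference in this direction between the TPAC lines. With a low signal in TCPA18654, this fold is not exact. Cldn2, a claudin gene of pore-forming, leaky junctions, had 8.44 in K459 and 6.13 in TCPA18654, against 4.98 in TPC20223 and 6.02 in TPC18645, all but the first of them low. Cldn4, a claudin gene of sealing junctions that is abundant in pancreatic cancer, was 3.84-fold higher in K459 than in TCPA18654, Cldn7 3.01-fold and Cldn18, a claudin gene of stomach and lung, 2.46-fold. Tjp3, encoding the scaffold ZO-3, took part in both patterns, with 10.03 in K459 and 8.65 in TCPA18654, against 7.06 in TPC20223 and 8.64 in TPC18645.

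Cldn6, a claudin gene otherwise known from embryonic epithelia, had the widest range of the claudins. Its signal was 12 in K459 and 10.33 in TCPA18654, against 6.99 in TPC20223 and 9.65 in TPC18645. The lines of the genotypes did not overlap, and K459, TCPA18654, TPC18645 and TPC20223 followed each other in steps of at least 0.68. Cldn1, encoding a claudin of many epithelia, had a pattern of its own, with 8.89 in K459 and 6.34 in TCPA18654, against 8.06 in TPC20223 and 7.93 in TPC18645. TCPA18654 was 3.01-fold below TPC18645 for Cldn1, the 5th largest difference in this direction among all genes, and Cldn1 was the only member for which TCPA18654 lay at least 1 below each other line (0.0602% of all genes). The Cldn1 signal in TCPA18654 was low, so the 3.01-fold difference is not exact. In TPC20223 the Cldn1 signal was not below that of TPC18645. Cldn3 was at 8.82 in K459 and between 7.68 and 7.85 in the other lines, and was the remaining tight junction member that was not lowest in TPC20223. Marveld2 and Marveld3, encoding relatives of occludin, were highest in K459 (7.88 and 7.65), where they were 1.96-fold and 1.72-fold above TCPA18654. Both were low in TCPA18654, so these folds are not exact. The range over the 4 lines was 0.81 for Cldn12, 0.37 for Cldn15 and 0.57 for Cldn23, and the mean signals of Cldn15 and Cldn23 were in the lowest 40% of genes, as were those of Cldn2, Marveld2, Dsc2 and Gjb1.

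Epcam, encoding an epithelial adhesion molecule that is not a cadherin, followed the K459 pattern rather than that of Cdh1. It had 9.77 in K459 and 7.37 in TCPA18654, against 6.43 in TPC20223 and 6.82 in TPC18645. K459 was 5.28-fold above TCPA18654, and in TPC18645, with a Cdh1 signal of 12.57, the Epcam signal was low. Among the polarity members, Llgl2, a basolateral polarity gene, was 4.11-fold lower in TPC20223 than in TPC18645, and Pard6b, of the apical Par complex, 2.62-fold. Crb3, encoding the epithelial Crumbs protein, varied less, with 8.43 in K459 and 7.84 in TCPA18654, against 7.39 in TPC20223 and 7.88 in TPC18645. Pard3, encoding the Par complex scaffold, had 9.28 in K459 and 8.97 in TCPA18654, against 9.22 in TPC20223 and 8.85 in TPC18645. Its signal in TPC20223 lay within the range of the other lines.

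Of the gap junction members, Gjb2, encoding connexin 26, had 7.0 in K459 and 6.20 in TCPA18654, against 10.10 in TPC20223 and 6.45 in TPC18645. It was 12.6-fold higher in TPC20223 than in TPC18645, a fold that is not exact because the TPC18645 signal was low. With Cdh11, it was 1 of 2 members that exceeded each other line by at least 1 in TPC20223, against 4.24% of all genes. TPC20223 was the highest line for 3 members (28.1% of all genes). Gja1, encoding connexin 43, the connexin of many mesenchymal cells, had 10.12 in K459 and 10.86 in TCPA18654, against 11.65 in TPC20223 and 10.60 in TPC18645. It was the third of these, with a smaller step. Gjb1, encoding connexin 32 of acinar and liver cells, went the other way at low signal, with 7.65 in K459 and 6.90 in TCPA18654, against 6.45 in TPC20223 and 6.80 in TPC18645.

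**Figure D3:**
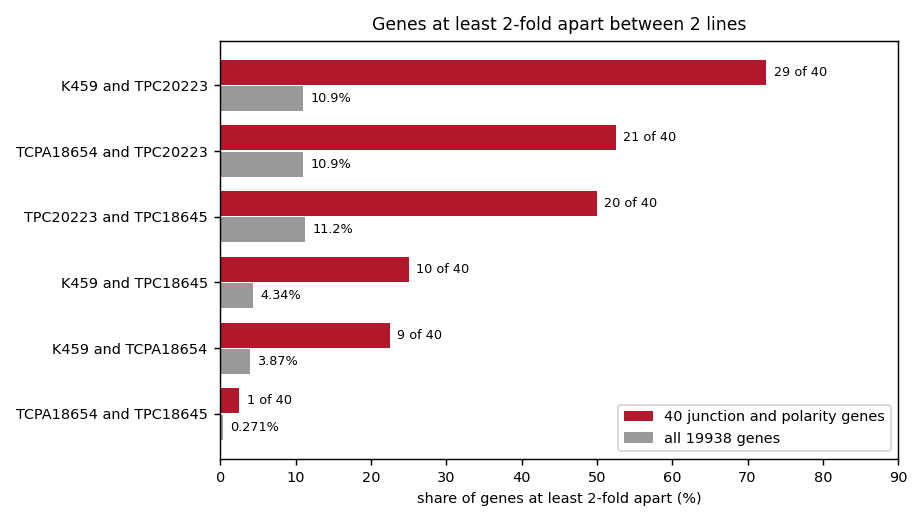
Share (horizontal axis, percent) of the 40 members (red) and of all 19938 genes (grey) that differed at least 2-fold between the lines of each pair. The 3 pairs with TPC20223 hold 20 to 29 members, the 2 other pairs with K459 hold 9 and 10, and TCPA18654 with TPC18645 holds 1.

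Set side by side, the 6 pairs of lines gave the counts shown in the plot of shares by pair. At least 2-fold apart were 29 members between K459 and TPC20223 (10.9% of all genes), of which 26 were higher in K459 (5.11%) and 3 lower (5.79%). The count was 21 between TCPA18654 and TPC20223 (10.9%), with 18 higher in TCPA18654 (4.55%) and 3 lower (6.33%), and it was 20 between TPC20223 and TPC18645 (11.2%), 10 between K459 and TPC18645 (4.34%) and 9 between K459 and TCPA18654 (3.87%). Of the 20 between the TPC lines, 17 were lower in TPC20223 (5.28% of all genes) and 3, Cdh11, Gjb2 and Gja1, were higher (5.97%). All 10 and all 9 members of the last pairs were higher in K459, against 2.6% and 2.62% of all genes. The median range of a member over the 4 lines was 1.92, against 0.40 over all genes, a contrast that the choice of members can have enlarged.

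The comparison of TPAC with TPC asks whether junction genes differ with loss of p65. A gene counted as called where limma gave an adjusted p up to 0.05 and a log2 difference of at least 0.58 in size. By this rule 0 of the 40 members were called, and 0% of all genes, and the smallest adjusted p over the members was 0.989 (Benjamini-Hochberg over all genes). Without adjustment, 0 members had a limma p under 0.05, against 0.782% of all genes. Cldn6 came closest, with a log2 signal of 11.16 ± 1.18 in TPAC and 8.32 ± 1.88 in TPC lines (SD, n = 2 each), a difference of 2.85 with a standard error of 1.15. Cdh1 had 12.65 ± 0.04 in TPAC and 9.77 ± 3.97 in TPC lines, a difference of 2.88 with a standard error of 2.05. For Cdh1, and for Cdh11 with 6.70 ± 0.35 in TPAC and 9.50 ± 4.24 in TPC lines, the spread between the TPC lines exceeded the difference between the genotypes. Epcam differed by 1.95 with a standard error of 0.90, with 8.57 ± 1.70 in TPAC and 6.62 ± 0.28 in TPC lines. In an exact permutation test, 2 lines against 2 allow 6 assignments, and the smallest two-sided p is 0.333.

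By mean, 36 members were higher in TPAC (52.2% of all genes) and 4, Cldn1, Cdh11, Gjb2 and Gja1, were lower (46.7%), with a median difference of 0.65 against 0.01 over all genes. At least 0.58 higher were 22 members (3.94%) and at least 0.58 lower were 3 (5.24%). The difference depended on which TPC line was used. Without TPC20223 the median was 0.18, 27 members were higher in TPAC (46.3%), and 9 were at least 0.58 higher (2.52%), namely Cldn2, Cldn3, Cldn4, Cldn6, Cldn18, Ocln, Tjp3, Marveld2 and Epcam. Cdh1 then differed by 0.08, Dsp by -0.16, F11r by -0.14 and Cdh11 by 0.20. Without TPC18645 the median was 1.14, Cdh1 differed by 5.69 and its adjusted p by limma was 0.0913 (0.0913 to 0.998 over the alternatives). Without K459 the median was 0.40, with 0.43 for Ocln, 0.23 for Cldn4 and 0.75 for Epcam.

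Both TPAC lines lay above both TPC lines for 16 members, against 13.7% of all genes, and below them for 0 members, against 13.3%. For Cdh1 and Cgn the step was small beside the gap between the TPC lines, the TPAC lines exceeding TPC18645 by 0.08 on average for Cdh1 and by 0.17 for Cgn. For others the lower TPAC line, TCPA18654, exceeded TPC18645 by 0.01 (Tjp3), 0.06 (Ocln), 0.07 (Marveld3), 0.10 (Gjb1) and 0.11 (Cldn2). It did so by 0.13 for Cldn4, 0.14 for Cldn23 and Pkp3, 0.15 for Marveld2 and 0.17 for Cldn3. The median size of this difference over all genes was 0.12. TCPA18654 exceeded TPC18645 by more than these steps for Cldn18 (0.27), Dsc2 (0.35), Epcam (0.55) and Cldn6 (0.68). Set against TPC18645 alone, both TPAC lines lay above it for 17 members (26.5% of all genes) and below it for 8 (35%), Cldn12, F11r, Llgl2, Ctnna1, Cdh2, Pkp2, Jup and Ppl. By the mean of the TPAC lines minus TPC18645, the largest differences were those of Epcam (1.75) and Cldn6 (1.51). For TCPA18654 alone their order was the reverse. For 25 members the gap between the TPC lines was larger than the difference between the genotypes, against 71.3% of all genes.

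**Figure D4:**
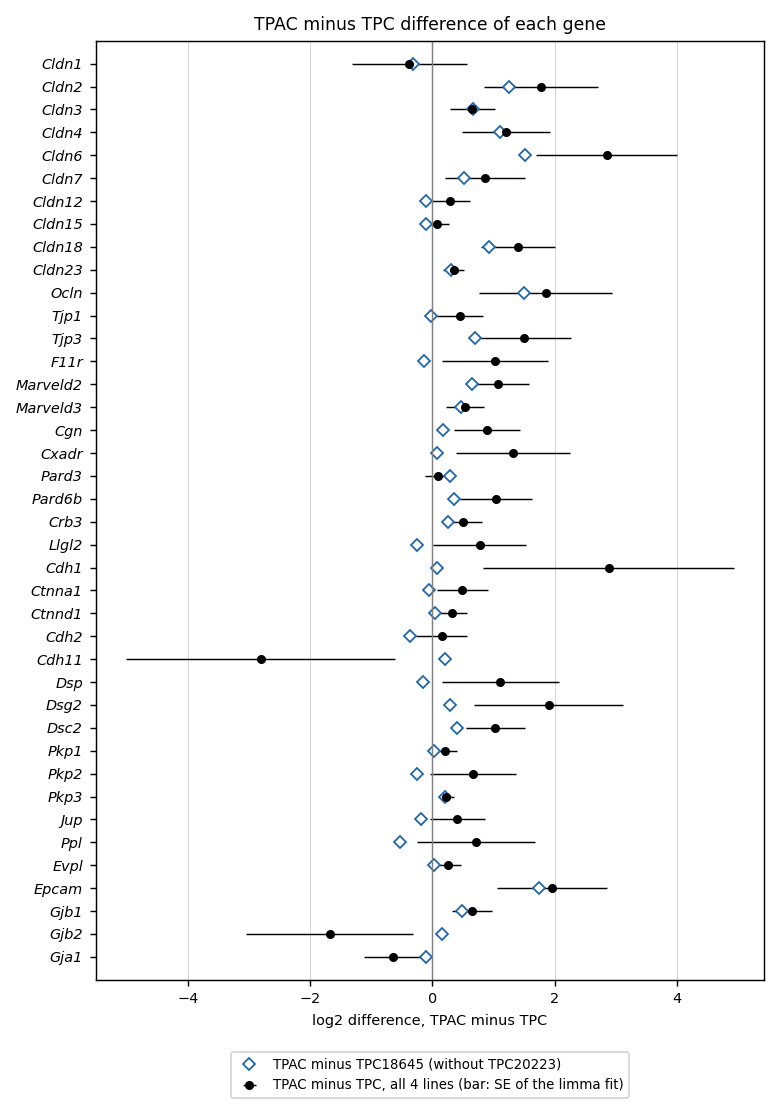
Log2 difference, TPAC minus TPC (horizontal axis), of each member (rows), with all 4 lines (filled points, bars give the standard error of the limma fit) and with TPC18645 as the only TPC line (open diamonds). Differences of Cdh1, Cdh11, Gjb2, Dsp, Dsg2 and Cxadr lie near 0 without TPC20223, whereas those of Epcam, Ocln, Cldn2, Cldn4 and Cldn6 stay above 1. The latter come largely from K459. The other TPAC line, TCPA18654, exceeded TPC18645 by 0.55 (Epcam), 0.06 (Ocln), 0.11 (Cldn2), 0.13 (Cldn4) and 0.68 (Cldn6), values not plotted here.

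The other junction genes, from lists of 67 genes of the same structures of which 62 were measured, had smaller ranges. Members and lists were chosen with earlier results of these data known, so this contrast can partly reflect the choice. Their median range over the 4 lines was 0.49 and their median TPAC minus TPC difference was 0.06. In TPAC, 36 were higher (52.2% of all genes) and 25 lower (46.7%), and 0 were called by limma (0%). Without adjustment 2 of them had a limma p under 0.05, against 0.782% of all genes. These were Cdh6, encoding a kidney-type cadherin, with a difference of 0.70 and Pard6g, of the Par complex, with -0.84 (adjusted p = 0.989 for both). TPC20223 was lowest by at least 1 for 7 of the 62 (2.95% of all genes), Lsr, Jam2, Cgnl1, Nectin2, Cdh17, Pkp4 and Perp. Lsr, encoding the lipolysis-stimulated receptor of tricellular junctions, had 10.24 in K459 and 10.03 in TCPA18654, against 7.01 in TPC20223 and 10.14 in TPC18645. Jam3 and Mpdz were highest there by at least 1 (4.24% of all genes). Jam3, encoding JAM-C, had 7.16 in K459 and 5.83 in TCPA18654, against 8.76 in TPC20223 and 6.03 in TPC18645. The multi-PDZ scaffold gene Mpdz had 7.65 in K459 and 6.36 in TCPA18654, against 8.87 in TPC20223 and 6.55 in TPC18645. Of the junctional adhesion molecule genes, F11r was thus lowest and Jam3 highest in TPC20223.

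Cdh17, encoding liver-intestine cadherin, had the widest range of these genes. It had 10.72 in K459 and 7.34 in TCPA18654, against 6.13 in TPC20223 and 7.70 in TPC18645. Cdh17 was the only one that exceeded each other line by at least 1 in K459 (0.988% of all genes). Cdh13, encoding a cadherin anchored by a lipid, was also highest in K459 at 10.36, against 8.85 in TCPA18654. Cdh3, encoding P-cadherin, was not lowest in TPC20223, with 8.95 in K459 and 8.07 in TCPA18654, against 8.23 in TPC20223 and 7.50 in TPC18645. Genes of the polarity complexes had small ranges, the widest being 1.18 for Pard6g, 1.07 for Mpp5 (Pals1), 1.06 for Lin7c and 0.54 for Prkcz. Dsg3 and Dsc3, desmosomal cadherin genes of stratified epithelia, had low signals from 5.02 to 5.27 in all lines, whereas Pkp4 and Perp, with TPC20223 signals of 9.53 and 9.45, were 2.14-fold and 2.43-fold below TPC18645. Of the other gap junction genes, Gjc1 had the widest range (0.92), followed by Panx1 (0.39), Gjb5 (0.38) and Gja4 (0.35).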

How the data were processed

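RNA of 4 mouse pancreatic tumour cell lines was hybridised to Affymetrix Mouse Gene 1.0 ST arrays, 1 per line. Log2 values were deposited as computed by RMA, in Affymetrix Expression Console 1.4 by the submitters' processing notes. Array batches are not given in the sources used here. Of 28941 transcript clusters, 21789 carried 1 gene symbol. A gene with several clusters was represented by its brightest, which left 19938 genes and no filter on low signal. No member had more than 1 cluster. The genotypes were compared with limma 3.58.1 under R 4.3.3 (lmFit, eBayes, two-sided), p-values were adjusted by Benjamini-Hochberg across every gene, and the fit was tested on simulated data first. Single lines were compared by their differences, without a test, and the number of arrays limits the precision. All members are named; values in every line are given for the 12 of widest range and for Cdh2, Tjp1, Ctnna1, Ctnnd1, Jup and Gja1, and of the other junction genes the 4 widest of each list, Ctnnb1 and Cdh3 are named. Further genes and values were added after the data were seen. Members, lists and motifs were chosen with earlier results of these data known. Promoters came from the RefSeq table of GRCm38.p6. Alternatives were 2 other scalings (common median, cyclic loess), averaged clusters, leaving out genes of low mean signal, an intensity trend, the methods' t-test, other thresholds, a shorter promoter and each line left out in turn.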

Additional observations from a re-analysis of the deposited data

How the results depend on the processing

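No gene was called by limma under any scaling, filter or trend, or with any line left out, and 0 by the methods' t-test after adjustment. Without adjustment, at p under 0.05 and a log2 difference of at least 0.58, limma passed 84 genes and the methods' t-test 15. With 1 line left out, the lone line of a genotype is taken to vary like the other group. Without TPC20223 the direction turned for 13 members: the difference became -0.11 for Cldn12, -0.11 for Cldn15, -0.02 for Tjp1, -0.14 for F11r, -0.25 for Llgl2, -0.06 for Ctnna1, -0.36 for Cdh2, 0.20 for Cdh11, -0.16 for Dsp, -0.25 for Pkp2, -0.18 for Jup, -0.53 for Ppl and 0.15 for Gjb2. With each line left out in turn, differences ran from -0.11 to 0.70 for Cldn12, -0.11 to 0.24 for Cldn15, -0.02 to 0.93 for Tjp1, -0.14 to 2.19 for F11r, -0.25 to 1.79 for Llgl2, -0.06 to 1.05 for Ctnna1, -0.36 to 0.66 for Cdh2, -5.80 to 0.20 for Cdh11, -0.16 to 2.40 for Dsp, -0.25 to 1.57 for Pkp2, -0.18 to 1.0 for Jup, -0.53 to 1.95 for Ppl, -3.50 to 0.15 for Gjb2, -1.66 to 0.90 for Cldn1 and -0.09 to 0.28 for Pard3. Cldn1 turned to 0.90 without TCPA18654, Cldn15 to -0.06 and Cdh2 to -0.05 without it, and Pard3 to -0.09 without TPC18645 and to -0.06 without K459. The 25 members not named in this paragraph kept their direction in every setting run. The median over the members was 0.64 to 0.66 under the other scalings, clusters and filters, and 0.18 to 1.14 with 1 line left out. Without TPC20223, an alternative chosen after seeing the data, both TPAC lines lay above TPC18645 for 17 members in place of 16 (26.5% of all genes) and below it for 8 in place of 0 (35%). At a 1.5-fold limit 19 members differed between K459 and TCPA18654 (9.73% of all genes) and 3 between TCPA18654 and TPC18645 (1.56%). At 4-fold the counts were 4 between K459 and TCPA18654 (0.933% of all genes), 17 between K459 and TPC20223 (3.5%), 5 between K459 and TPC18645 (1.12%), 9 between TCPA18654 and TPC20223 (3.86%), 0 between TCPA18654 and TPC18645 (0.015%) and 10 between TPC20223 and TPC18645 (3.96%), as a stricter limit must give fewer. No paired analysis was possible because the labels give the lines no shared replicate numbers. At 1 array per line, and with 14 members low in TPC20223, the size of single differences has no replicate check.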
